A study of Mus musculus with 6 samples.

Results

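The genes described here are those of surfactant and of airway secretion, the products that mark the mature lung epithelium. They are Sftpa1, Sftpb, Sftpc, Sftpd, Scgb1a1, Scgb3a1, Scgb3a2, Abca3, Lamp3 and Napsa, 10 of the 19938 genes measured. They were chosen by symbol, with earlier results of these data known, and each had 1 row in the deposited table. The samples came from mouse embryonic stem (ES) cells of the W4/129S6 background with a GFP (green fluorescent protein) reporter knocked into Nkx2-1. These cells were differentiated for 14 days and sorted into Nkx2-1 high (genotype label Nkx2-1GFP+, 3 samples) and Nkx2-1 low (genotype label Nkx2-1GFP-, 3 samples). Both groups come from reporter cells, and the sort on GFP separates them. The protocols call the samples biological replicates.

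Pulmonary surfactant is a film of phospholipid and protein that lowers surface tension in the alveoli. Alveolar type 2 cells make it, store it in lamellar bodies and secrete it, while club cells of the airways secrete secretoglobins. Nkx2-1, the homeodomain protein that lung, thyroid and parts of the forebrain share, binds the promoters of several surfactant and secretoglobin genes. In the embryo most of these genes reach high levels late, well after the lung bud has formed.

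The cells were sorted on Nkx2-1, so the promoters of the genes were read for a motif of that protein. The sequences are RefSeq's for the build GRCm38.p6, given 5′ to 3′ over the 250 bases before the gene's start. Capitals mark the letters CTCAAG, a core of sites that Nkx2-1 is known to bind, or their reverse complement. Sftpa1 is shown because it rose, Sftpb and Scgb3a1 because they carry the same letters, and Abca3 because it lies above background without them.
Sftpa1 (chr14:41131538-41131787, plus strand): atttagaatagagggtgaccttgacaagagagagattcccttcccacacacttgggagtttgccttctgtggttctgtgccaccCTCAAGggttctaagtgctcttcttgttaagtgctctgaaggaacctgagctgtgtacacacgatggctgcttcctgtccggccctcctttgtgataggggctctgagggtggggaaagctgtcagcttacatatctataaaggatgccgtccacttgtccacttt
Sftpb (chr6:72304360-72304609, plus strand): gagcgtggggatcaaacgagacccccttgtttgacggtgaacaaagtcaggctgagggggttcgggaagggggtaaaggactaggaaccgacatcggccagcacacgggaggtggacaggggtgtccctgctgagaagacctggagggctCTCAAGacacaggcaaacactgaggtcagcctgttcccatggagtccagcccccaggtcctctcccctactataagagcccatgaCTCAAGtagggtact
Scgb3a1 (chr11:49663345-49663594, plus strand): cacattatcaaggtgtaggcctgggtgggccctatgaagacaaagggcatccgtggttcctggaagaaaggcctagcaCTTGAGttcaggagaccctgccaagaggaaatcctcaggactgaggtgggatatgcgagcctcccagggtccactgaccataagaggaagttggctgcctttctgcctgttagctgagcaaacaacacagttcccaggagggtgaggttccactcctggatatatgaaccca
Abca3 (chr17:24351773-24352022, plus strand): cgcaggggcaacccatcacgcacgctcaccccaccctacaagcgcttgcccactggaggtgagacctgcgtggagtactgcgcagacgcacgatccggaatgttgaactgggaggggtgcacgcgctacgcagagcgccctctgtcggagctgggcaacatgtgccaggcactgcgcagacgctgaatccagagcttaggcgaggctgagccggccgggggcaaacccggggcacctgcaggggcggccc

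Promoters were read for 5 of the 10 genes (the fifth was Lamp3). Scgb3a2 was not looked up, and Sftpc, Sftpd, Scgb1a1 and Napsa had no entry among the promoters used. Of the 5, 3 held CTCAAG on either strand: Sftpa1 with 1 match, Sftpb with 2 and Scgb3a1 with 1. Of all 32851 RefSeq promoters of that length, 13.3% held it. In Sftpa1 the match covers bases 166 to 161 before the start. In Sftpb the matches cover bases 100 to 95 and 15 to 10. TATAAA, the core promoter box that general transcription factors bind, was found in Sftpa1 at bases 30 to 25 before the start and in 12.4% of all promoters. TGTTTNC, a forkhead type motif, was found in Sftpb, Scgb3a1 and Lamp3 and in 17.8% of all promoters. The Abca3 window held none of the 3 motifs, and its GC content was 67.6%, against a median of 52.4% over all promoters. These matches are letters in a window, and no binding was measured.

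The sort was checked on Nkx2-1 itself. Its log2 expression was 7.62, 7.77 and 7.77 in Nkx2-1 high, against 5.42, 5.23 and 5.34 in Nkx2-1 low. Values are log2 expression throughout, and each array's median over genes lay between 5.24 and 5.30. In a limma fit over all genes, 1196 of 19938 genes had an adjusted p under 0.05, which is the threshold for "rose" and "fell": 579 were higher and 617 lower in Nkx2-1 high. That count dropped to 772 when replicate 1 of Nkx2-1 high was left out, and to 624 for its replicate 2. For replicates 1 and 2 of Nkx2-1 low it became 765 and 709. The cells are labelled as ES cells, but 0 of 5 measured pluripotency markers lay above background. The background level was a log2 value of 4.35, the 95th percentile of 1035 rows of olfactory receptor genes, which are used in sensory neurons of the nose.

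Of the surfactant protein genes only Sftpa1 rose, at a signal close above background. Sftpa1 encodes surfactant protein A, a collectin that binds microbes and helps to organise the surfactant film. Its row (10414202) read 5.39, 5.18 and 5.38 in Nkx2-1 high, against 4.90, 4.77 and 4.80 in Nkx2-1 low. The lowest Nkx2-1 high sample exceeded the highest Nkx2-1 low one, and all 6 were above the background level. The means were 5.32 ± 0.12 in Nkx2-1 high and 4.83 ± 0.07 in Nkx2-1 low (SD, n = 3 each), a 1.41-fold difference. The log2 difference was 0.49 ± 0.09 (SE, 95% interval 0.30 to 0.68, limma adjusted p = 0.00948). Of the 579 genes that rose, 362 had a larger log2 difference. In a bulk sample, more cells that transcribe Sftpa1 and more of its RNA per cell cannot be told apart.

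**Figure D1:**
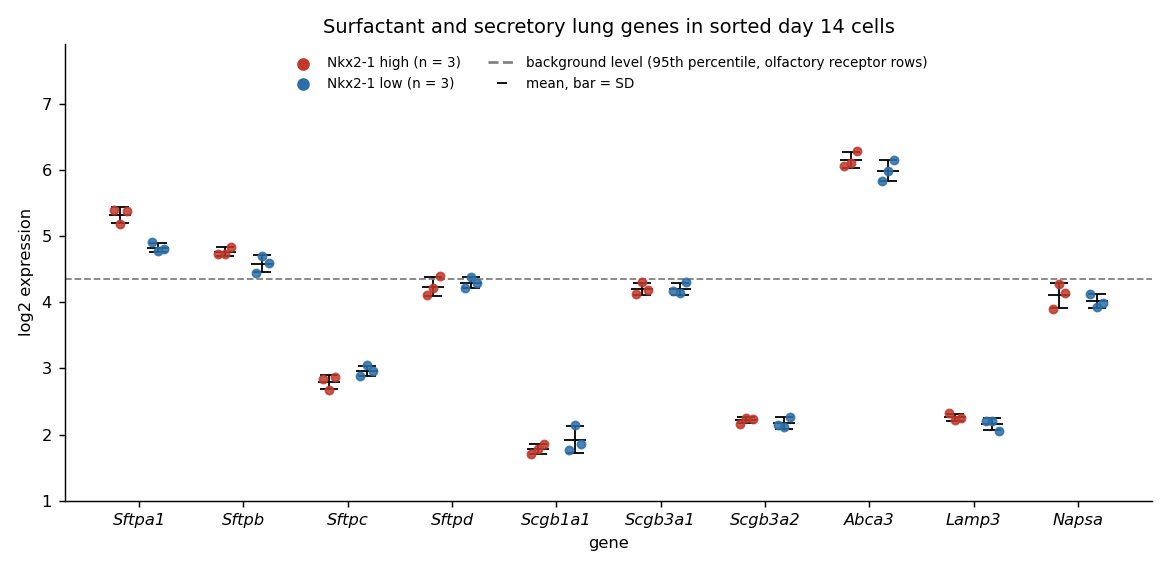
Log2 expression of the 10 surfactant and secretory genes (x axis) in each of the 6 samples, with the mean and SD of each group of 3 and the background level of 4.35 as a dashed line. Sftpa1, Sftpb and Abca3 lie above the line in every sample, and only for Sftpa1 did the difference pass the test.

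Sftpb encodes surfactant protein B, a small hydrophobic protein without which lamellar bodies and the surface film do not form. Its row (10539091) read 4.72, 4.72 and 4.84 in Nkx2-1 high, against 4.45, 4.70 and 4.59 in Nkx2-1 low. The groups did not overlap, but the lowest Nkx2-1 high sample and the highest Nkx2-1 low sample differed by less than the SD of either group. The means were 4.76 ± 0.07 in Nkx2-1 high and 4.58 ± 0.13 in Nkx2-1 low (SD, n = 3 each). The log2 difference of 0.18 ± 0.09 (SE) did not pass (limma adjusted p = 0.318), with a 95% interval from -0.02 to 0.38.

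Sftpc and Sftpd were not above background. Sftpc encodes surfactant protein C, a lipopeptide made almost only by alveolar type 2 cells. Its values were 2.83, 2.67 and 2.87 in Nkx2-1 high, against 2.88, 3.04 and 2.96 in Nkx2-1 low. All 3 Nkx2-1 high samples were thus the lower ones, at a signal inside the range of the olfactory receptor rows, and the limma adjusted p was 0.339. Sftpd encodes surfactant protein D, the other lung collectin. It read 4.11, 4.21 and 4.39 in Nkx2-1 high, against 4.21, 4.39 and 4.29 in Nkx2-1 low. The groups overlapped (limma adjusted p = 0.794), and both means, 4.24 ± 0.14 in Nkx2-1 high and 4.30 ± 0.09 in Nkx2-1 low (SD, n = 3 each), lay just under the background level.

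Among the genes of lamellar bodies and surfactant processing, Abca3 was above background in both groups. Abca3 encodes the transporter that pumps phospholipid into lamellar bodies, and tissues other than lung express it too. Its row (10442396) read 6.06, 6.10 and 6.29 in Nkx2-1 high, against 5.83, 5.98 and 6.15 in Nkx2-1 low. The groups overlapped, and the sample numbered 3 was the highest in both. The means were 6.15 ± 0.12 in Nkx2-1 high and 5.99 ± 0.16 in Nkx2-1 low (SD, n = 3 each). The log2 difference of 0.16 ± 0.10 (SE) did not pass (limma adjusted p = 0.464), with a 95% interval from -0.07 to 0.39.

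Lamp3 encodes a membrane glycoprotein of lamellar bodies that mature dendritic cells also carry. It read 2.32, 2.22 and 2.24 in Nkx2-1 high, against 2.21, 2.21 and 2.05 in Nkx2-1 low. The groups were separated by a small gap, but all 6 values lay under the median of the olfactory receptor rows, 2.42, and the limma adjusted p was 0.549. Napsa encodes napsin A, an aspartic protease that helps to process the precursor of surfactant protein B and is also found in kidney. It read 3.90, 4.27 and 4.14 in Nkx2-1 high, against 4.13, 3.92 and 3.98 in Nkx2-1 low. The groups overlapped under the background level (limma adjusted p = 0.720).

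None of the 3 secretoglobin genes exceeded the background in a group mean. Scgb1a1 encodes the club cell secretory protein, the main secretoglobin of the airways. It read 1.71, 1.78 and 1.86 in Nkx2-1 high, against 1.77, 2.15 and 1.86 in Nkx2-1 low (limma adjusted p = 0.537). These are signals below those of most olfactory receptor rows, and the groups overlapped. Scgb3a2, an early marker of the secretory lineage in the mouse airway, read 2.17, 2.26 and 2.24 in Nkx2-1 high, against 2.14, 2.11 and 2.27 in Nkx2-1 low (limma adjusted p = 0.819). Scgb3a1, another airway secretoglobin, read 4.12, 4.30 and 4.18 in Nkx2-1 high, against 4.16, 4.14 and 4.30 in Nkx2-1 low. Its means were equal to 2 decimals, 4.20 ± 0.09 in Nkx2-1 high and 4.20 ± 0.09 in Nkx2-1 low (SD, n = 3 each, limma adjusted p = 0.997).

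Of the 10 genes, 1 passed the test and was higher, 0 fell by limma, and at an unadjusted p under 0.05 the count was the same 1. Over all genes 2.90% passed as higher and 3.09% as lower. The groups did not overlap for 4 of the 10 genes, against 24.7% of all genes. Nkx2-1 high lay above for 3 (Sftpa1, Sftpb and Lamp3), against 11.2% of all genes, and below for 1 (Sftpc), against 13.5%. Lamp3 and Sftpc were not above background. The median log2 difference of the 10 was 0.07, against -0.01 over all genes. Of genes not above background, which the other 7 members were, 1.11% passed the test in either direction, against 8.47% of genes above it.

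The place of each gene among the olfactory receptor rows was also read within each sample. Abca3 lay above 99.6% of these rows in the Nkx2-1 high samples and above 99.5% to 99.6% in the Nkx2-1 low samples. Sftpa1 lay above 98.7% to 99.2% of them in Nkx2-1 high and above 97.2% to 98.3% in Nkx2-1 low. For Sftpb the shares were 97.1% to 97.3% in Nkx2-1 high and 95.8% to 96.9% in Nkx2-1 low. These 3 genes passed each sample's own 95th percentile in 6 of 6 samples.

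The other 7 genes fell into a set next to the level and a set well inside the olfactory range. Sftpd lay above 92.9% to 94.7% of the rows in Nkx2-1 high and at least 93.9% in Nkx2-1 low, and 1 Nkx2-1 low sample passed its own level. Scgb3a1 (92.9% to 94.6% in Nkx2-1 high, 93.1% to 94.3% in Nkx2-1 low) and Napsa (90.6% to 94.4% in Nkx2-1 high, at most 93.4% in Nkx2-1 low) also lay close under it. Sftpc had shares of 60.0% to 66.6% in Nkx2-1 high and 67.7% to 71.4% in Nkx2-1 low. Scgb3a2 had 38.8% to 43.2% in Nkx2-1 high and 34.1% to 40.7% in Nkx2-1 low, and Lamp3 had 41.4% to 46.6% in Nkx2-1 high and 29.0% to 43.6% in Nkx2-1 low. Scgb1a1 had 15.4% to 22.1% in Nkx2-1 high and 20.4% to 35.8% in Nkx2-1 low.

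**Figure D2:**
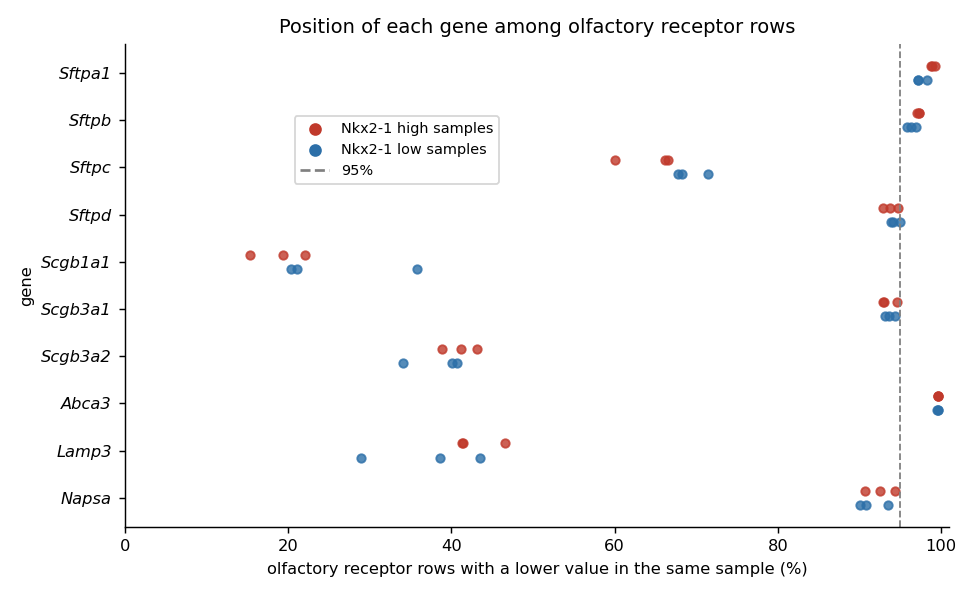
Share of the 1035 olfactory receptor rows with a lower value than the gene in the same sample (x axis, percent), for each of the 10 genes, with 3 Nkx2-1 high points above 3 Nkx2-1 low points and a dashed line at 95%. Sftpa1, Sftpb and Abca3 lie right of the line in all 6 samples, Sftpd, Scgb3a1 and Napsa lie at or just left of it, and Sftpc, Scgb3a2, Lamp3 and Scgb1a1 lie far left.

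The count above background depended on where the level was set. With the 90th percentile of the olfactory rows, a log2 value of 3.87, it was 6 of 10 (Sftpd, Scgb3a1 and Napsa were added). With the 99th percentile, 5.37, it was 1, Abca3. Rows of genes of other organs also lay above the level: of 6 measured kidney markers 5 did, among them the collecting duct water channel gene Aqp2 with a mean of 5.82 ± 0.02 in Nkx2-1 high and 5.87 ± 0.02 in Nkx2-1 low (SD, n = 3 each). In all, 66.4% of genes were above it.

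The rise of Sftpa1 kept its direction and much of its size under the alternatives tried. Its log2 difference ran from 0.45 to 0.56 over 16 alternatives, and it passed in each of the 6 fits without 1 sample, with a limma adjusted p of at most 0.0450. Without both samples numbered 3, with 2 samples left in each group, it was 0.45 and did not pass (limma adjusted p = 0.0664). Sftpb (0.11 to 0.24) and Abca3 (0.08 to 0.24) stayed above 0 in 15 alternatives each and passed in none of them, with a limma adjusted p of at least 0.217 for Sftpb and at least 0.271 for Abca3.

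**Figure D3:**
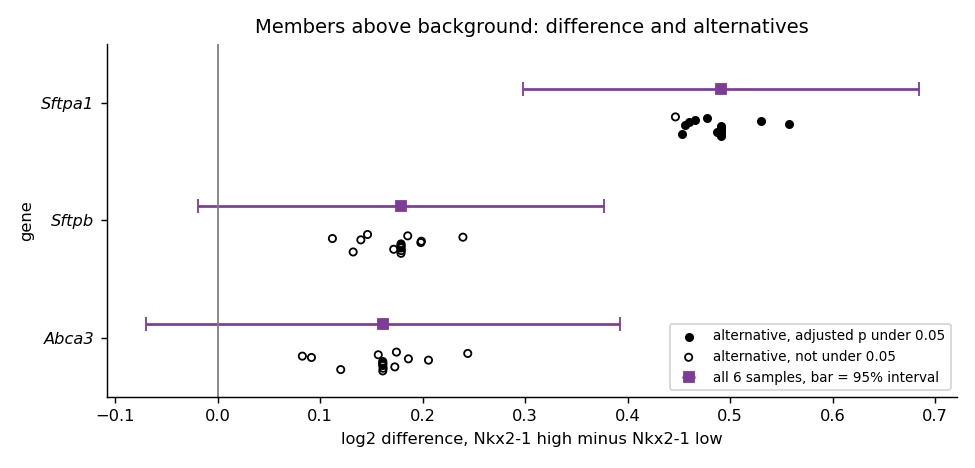
Log2 difference (x axis, Nkx2-1 high minus Nkx2-1 low) of the 3 genes above background, with its 95% interval from the fit of all 6 samples (squares) and the values under the alternatives (circles, filled where the adjusted p was under 0.05). The interval of Sftpa1, 0.30 to 0.68, lies right of 0, and those of Sftpb and Abca3 include 0.

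The genes whose profile over the 6 samples was nearest to that of Sftpa1, by the root mean square distance of centred log2 values, were Snora75 (0.04), Pde9a (0.05) and Unc5d (0.05). Snora75, a small nucleolar RNA gene, read 6.43, 6.15 and 6.43 in Nkx2-1 high, against 5.94, 5.88 and 5.79 in Nkx2-1 low. Pde9a, a cyclic GMP phosphodiesterase gene, averaged 5.43 ± 0.12 in Nkx2-1 high and 4.98 ± 0.09 in Nkx2-1 low (SD, n = 3 each). Unc5d, a netrin receptor gene, averaged 6.14 ± 0.09 in Nkx2-1 high and 5.68 ± 0.06 in Nkx2-1 low (SD, n = 3 each). As with Sftpa1, the lowest Nkx2-1 high sample of all 3 was replicate 2. The choice by nearest profile builds in this likeness, so it adds no separate observation.

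Sftpa1 and Sftpd lie in a collectin gene cluster of chromosome 14. In RefSeq order among measured genes, Mat1a comes before Sftpa1, and Mbl1, a mannose-binding collectin gene, lies between Sftpa1 and Sftpd. Mbl1 averaged 2.91 ± 0.04 in Nkx2-1 high and 2.97 ± 0.15 in Nkx2-1 low (SD, n = 3 each, limma adjusted p = 0.797). Mat1a, a liver methionine cycle gene, averaged 3.21 ± 0.32 in Nkx2-1 high and 3.32 ± 0.06 in Nkx2-1 low (SD, n = 3 each, limma adjusted p = 0.749). Neither these neighbours nor Sftpd was above background. Over the 10 genes, 37 other genes lay within 2 places, and 2 of them passed. One was Flt4, a lymphatic and vascular growth factor receptor gene next to Scgb3a1, which averaged 6.21 ± 0.07 in Nkx2-1 high and 5.12 ± 0.06 in Nkx2-1 low (SD, n = 3 each). The other, Jakmip2, lies 2 places from Scgb3a2 and fell, averaging 4.01 ± 0.07 in Nkx2-1 high and 4.57 ± 0.20 in Nkx2-1 low (SD, n = 3 each).

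Genes that act with surfactant were read from lists. These lists, and those of cell types below, were chosen with earlier results of these data known. Of 19 measured genes of surfactant lipid synthesis and lamellar bodies, 17 were above background and 1 passed, Scd1, the stearoyl-CoA desaturase gene, which fell to 8.93 ± 0.07 in Nkx2-1 high, against 9.25 ± 0.04 in Nkx2-1 low (SD, n = 3 each, limma adjusted p = 0.0413). Its call held in 1 of the 6 fits without 1 sample, that without Nkx2-1 high replicate 3 (adjusted p up to 0.156 in the others). The median log2 difference of the list was -0.05. Of 18 genes for factors known to act on surfactant promoters, 14 were above background and 2 passed, both higher, with a list median of 0.04. They were Stat3, with a mean of 8.34 ± 0.21 in Nkx2-1 high and 7.92 ± 0.04 in Nkx2-1 low (SD, n = 3 each, limma adjusted p = 0.0482), and the glucocorticoid receptor gene Nr3c1, with a mean of 6.30 ± 0.08 in Nkx2-1 high and 5.96 ± 0.05 in Nkx2-1 low (SD, n = 3 each, limma adjusted p = 0.0329). Both calls held when Nkx2-1 high replicate 3 was left out and in none of the other 5 such fits (adjusted p up to 0.132 for Stat3 and 0.134 for Nr3c1).

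Most other genes of lung cell types did not pass. Of 12 further alveolar type 2 genes, 5 were above background and 2 rose, Egfl6 and Acot7, while 2.90% of all genes rose. The log2 differences of the 12 ran from -0.25 to 0.78, with a median of 0.04. Egfl6, which encodes a secreted protein with EGF repeats, averaged 5.46 ± 0.28 in Nkx2-1 high and 4.75 ± 0.16 in Nkx2-1 low (SD, n = 3 each, limma adjusted p = 0.0158), and lost the call without Nkx2-1 low replicate 1 or 2 (adjusted p up to 0.0672). Acot7, an acyl-CoA thioesterase gene that brain expresses strongly, averaged 7.56 ± 0.07 in Nkx2-1 high and 7.08 ± 0.09 in Nkx2-1 low (SD, n = 3 each, limma adjusted p = 0.00877). In 8 other lists, with 64 measured genes, limma called 0, and 2 with array weights. Before adjustment, 4 of the 64 were higher and 2 lower at p under 0.05. These lists were of surfactant clearance, other collectins, club and goblet cells, alveolar type 1 cells, motile cilia, macrophages and dendritic cells, kidney, and pluripotency. Of 14 club and goblet genes 5 were above background, of 9 alveolar type 1 genes 8 and of 8 cilia genes 3.

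**Figure D4:**
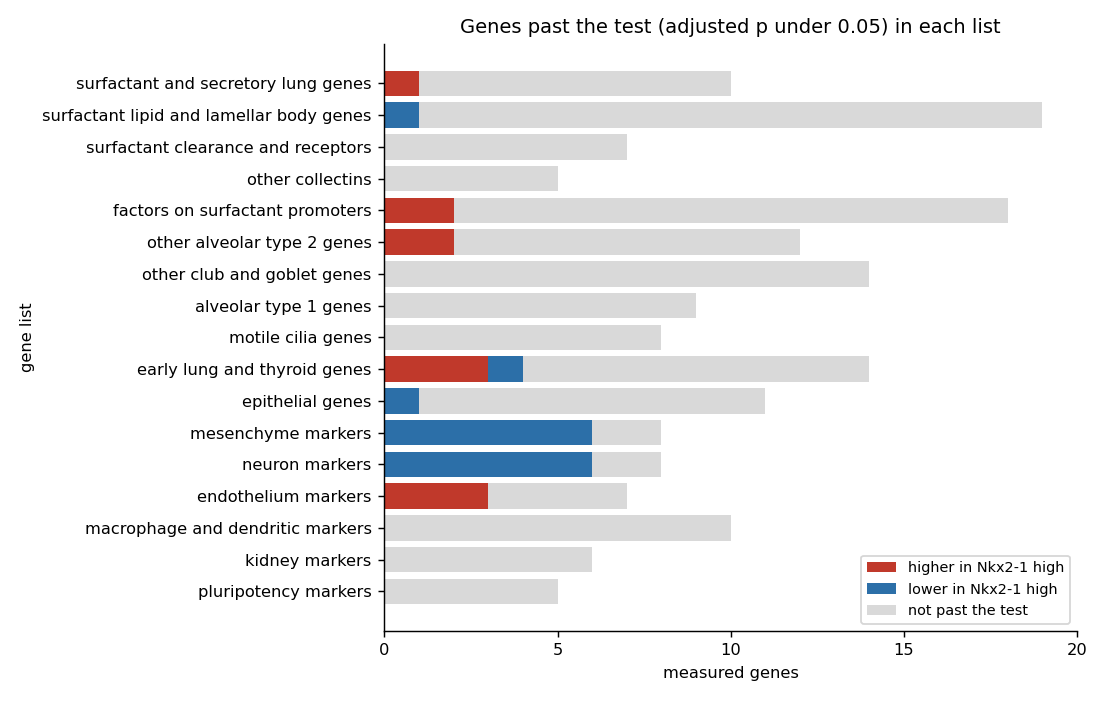
Number of measured genes (x axis) in the surfactant and secretory group and in 16 other lists that were higher in Nkx2-1 high, lower in it or not past the test at an adjusted p of 0.05. The surfactant and secretory group has 1 higher gene of 10, while 6 of 8 mesenchyme markers and 6 of 8 neuron markers were lower.

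Some markers of early lung and thyroid and of other cell types passed the test between the same groups. Of 14 early lung and thyroid genes 3 rose, the thyroid factor genes Hhex and Pax8 and the lung bud signal gene Bmp4, and Id2 fell, a call lost in 4 of the 6 fits without 1 sample. Of 11 epithelial genes 7 were above background and 1 passed, Epcam. Epcam averaged 4.31 ± 0.17 in Nkx2-1 high, under the background level, and 5.13 ± 0.17 in Nkx2-1 low (SD, n = 3 each, limma adjusted p = 0.00300). The log2 differences of the 11 ran from -0.81 to 0.35, with a median of -0.13. The mean log2 level over 8 mesenchyme markers was 8.26 to 8.64 in Nkx2-1 high samples and 9.54 to 9.78 in Nkx2-1 low samples. All 8 were above background, and 6 fell. The others, Pdgfrb and Vim, were higher in mean in Nkx2-1 high and did not pass. Over 8 neuron markers, all above background in at least 1 group, the mean log2 level was 4.81 to 5.17 in Nkx2-1 high and 5.87 to 5.92 in Nkx2-1 low. Of these 8 genes 6 fell, among them Elavl4, which lost its call in 4 of the 6 fits without 1 sample (limma adjusted p up to 0.106). Over 7 endothelium markers, of which 6 were above background, the mean log2 level was 5.28 to 5.58 in Nkx2-1 high and 4.82 to 4.997 in Nkx2-1 low. Of these 7 genes 3 rose (Flt4, Tek and Eng) and 4 did not pass. Of those 4, Cdh5 and Kdr were lower in mean in Nkx2-1 high, and Pecam1 and Emcn higher. Eng lost its call in 4 of the 6 fits without 1 sample (limma adjusted p up to 0.122). Over 10 macrophage and dendritic markers, with 7 not above background, the mean log2 level was 3.91 to 4.02 in Nkx2-1 high and 3.87 to 3.96 in Nkx2-1 low. Of them limma called 0, with 0 at an unadjusted p under 0.05. The part of these cell types in the rise of Sftpa1 was not tested.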

How the data were processed

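Per the labels' protocols, total RNA of the 6 sorted samples went through WT-Ovation Pico amplification, which can alter ratios between transcripts, and was biotin-labelled for Affymetrix arrays. The authors deposited log2 values per transcript cluster, and RMA (background subtraction, quantile normalization, probe summary) is named in the submitters' processing notes. The log2 scale was inferred from that method and the value range, since it is stated nowhere. RMA's version and the genome build: not given in the sources used here. The number of arrays limits the precision.

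Of 29011 rows, GEO's platform annotation gave a single gene symbol to 21789, and 21698 of these matched RefSeq (GRCm38.p6) by Entrez ID. The row with the highest mean was kept for each of 19938 genes. The test was limma 3.58.1 (R 4.3.3) on all 6 samples with group as the only term, Benjamini-Hochberg adjustment over all genes and a threshold of 0.05, tested on simulated data. Genes not above background get no fold. The 10 genes and 16 other lists (161 measured genes) were chosen with earlier results of these data known. Genes named are the 10, Nkx2-1, called list genes with the largest change, nearest profiles, neighbours and, for kidney, Aqp2. Jakmip2, Cdh5, Kdr, Pecam1, Emcn, Pdgfrb, Vim and Elavl4 were named to spell out counts. Alternatives were other normalizations, filters, variance models, weights, row choices, thresholds and samples left out. Same-numbered samples correlated in their deviations from the group means at 0.18, -0.0041 and 0.28 for numbers 1, 2 and 3. Between samples of the groups with unlike numbers the values ran from -0.27 to 0.15. The main fit did not take the numbers as pairs, and these values do not settle whether they are. Figures were drawn with matplotlib 3.10.9.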

Additional observations from a re-analysis of the deposited data

How the results depend on the processing

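Of the 10 genes, 1 (Sftpa1) passed in every alternative but that without both samples numbered 3, where 0 passed by limma. In the fits without 1 sample, the number called was 1 to 1. The number of genes above background was 6 with the 90th percentile of the olfactory rows, 1 with the 99th, 4 with vomeronasal receptor rows added (Sftpd joined), and 3 to 4 without 1 sample. Genes called over the whole table numbered 507 at an adjusted p under 0.01 and 624 to 1086 without 1 sample. Over the other lists, 25 genes were called, and 18 to 33 under the alternatives. Differences near 0 changed sign without passing: Scgb3a1 was -0.0075 with cyclic loess and -0.050 to 0.051 without 1 sample, Sftpd -0.14 to 0.0029 without 1 sample, Mat1a 0.088 without both samples numbered 3 and -0.25 to 0.061 without 1 sample, and Mbl1 -0.13 to 0.019 without 1 sample. With the replicate number as a block, 1 of the 10 passed, Sftpa1 (limma adjusted p = 0.00813), and 1470 genes were called in all. Whether same-numbered samples were paired is not settled. Their deviations correlated at 0.18 for number 1, -0.0041 for number 2 and 0.28 for number 3, against -0.27 to 0.15 between the groups for unlike numbers. The cause of the changes under these alternatives was not tested. Fits that left samples out also had fewer samples. Signal over background limits the reading: 7 of the 10 genes had no group mean above it. None of these 7 passed the test, and at such signals that says little about whether their expression differed.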
